A study of Homo sapiens with 8 samples.

Results

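Messenger RNA levels of 10 transcription factor genes of the erythroid and megakaryocyte lineages were described in a leukaemia cell line and its drug-resistant derivative. The genes were GATA1, GATA2, TAL1, LMO2, KLF1, NFE2, ZFPM1, ZFPM2, GFI1B and SPI1, chosen by symbol from a deposited table of 19718 coding genes, and all 10 were found. The cells were HEL92.1.7, a human erythroleukaemia line described in the labels as secondary acute myeloid leukaemia (called parental here), and HEL OTX P/R, its derivative that persisted under and became resistant to OTX015 (called P/R here). OTX015, also known as birabresib, inhibits BET proteins, which read acetylated chromatin through their bromodomains. The 4 groups, of 2 biological replicates each, were parental untreated, parental with 1000 nM OTX015 over 8 hours, P/R untreated, and P/R with the same dose and time. Both lines were grown in the same serum-containing medium, no vehicle control is named in the labels, and the sources used here do not say whether the P/R cells are 1 clone.

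GATA1 and GATA2 are zinc finger proteins that bind the GATA motif. GATA2 is known for its role in stem and progenitor cells and in mast cells, and GATA1 takes over many of its sites as erythroid cells and megakaryocytes mature. ZFPM1 (FOG1) and ZFPM2 (FOG2) are cofactors that bind GATA proteins. TAL1, LMO2 and LDB1 form a complex that joins GATA factors to E-box binding proteins such as TCF3. KLF1 binds CACCC motifs of erythroid genes, NFE2 pairs with small MAF proteins at globin and platelet genes, and GFI1B is a repressor that recruits the demethylase KDM1A. SPI1 (PU.1) drives myeloid fates and is known to antagonize GATA1.

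GATA motifs were looked for in the 250 bases before each annotated start of the members, because several of these genes are known to be regulated by GATA factors. The RefSeq promoter table (GRCh38.p14, not the build of the expression table) gave 9 promoters for 6 of the 10 members: GATA1, GATA2, TAL1, KLF1, ZFPM1 and GFI1B. LMO2, NFE2 and SPI1 had no entry, and ZFPM2 was left out of the search together with its chromosome. The word GATAA, which reads TTATC on the opposite strand, was found on either strand in 20.4% of all 35116 promoters of this length. A second form, GATAG, which reads CTATC on the opposite strand and can share an end letter with the first, was found in 15.9%. GATAA was found in 1 promoter each of TAL1, KLF1 and GFI1B, which are printed here 5′ to 3′ along the gene with the matches in capitals. TAL1 is shown at chr1:47232336-47232585 (minus strand), KLF1 at chr19:12887202-12887451 (minus strand) and GFI1B at chr9:132978444-132978693 (plus strand).
TAL1: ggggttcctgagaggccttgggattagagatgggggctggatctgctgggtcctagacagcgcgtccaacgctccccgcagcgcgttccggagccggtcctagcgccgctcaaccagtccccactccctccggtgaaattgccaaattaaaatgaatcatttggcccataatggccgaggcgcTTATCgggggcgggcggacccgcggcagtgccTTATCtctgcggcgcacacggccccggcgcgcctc
KLF1: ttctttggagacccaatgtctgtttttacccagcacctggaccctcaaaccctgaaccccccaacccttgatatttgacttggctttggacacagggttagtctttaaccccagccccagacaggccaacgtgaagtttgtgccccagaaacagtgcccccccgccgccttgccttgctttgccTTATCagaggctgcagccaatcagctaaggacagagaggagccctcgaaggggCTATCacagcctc
GFI1B: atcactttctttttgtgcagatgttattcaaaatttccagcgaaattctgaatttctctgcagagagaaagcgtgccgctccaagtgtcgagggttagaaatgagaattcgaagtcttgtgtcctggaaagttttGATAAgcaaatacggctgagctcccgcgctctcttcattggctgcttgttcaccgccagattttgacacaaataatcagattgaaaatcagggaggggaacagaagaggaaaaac
TAL1 held 2 GATAA matches, 67 and 35 bases before the start, both read on the opposite strand. KLF1 held GATAA at 66 bases and GATAG at 13 bases before the start, and GFI1B held 1 GATAA at 115 bases. Neither word was in the windows of GATA1, GATA2 and ZFPM1. The ZFPM1 window was 83.2% G and C. These matches are descriptions of the letters in the windows, and no binding data were used.

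Untreated parental cells expressed 9 of the 10 factors above 10 FPKM (fragments per kilobase of transcript, corrected for the size of the library), and ZFPM2 near 1 FPKM. FPKM is per length, so levels of different genes can be set side by side. GATA1 was at 335 ± 11.6 FPKM (SD, n = 2, as for all means below) and NFE2 at 335 ± 13.3, and their libraries overlapped. GATA2 followed at 292 ± 5.66, then KLF1 at 204 ± 0.619 and GFI1B at 186 ± 8.64. TAL1 at 114 ± 6.34 and SPI1 at 110.1 ± 7.47 overlapped in their libraries. LMO2 at 61.1 ± 7.004, ZFPM1 at 26.2 ± 1.96 and ZFPM2 at 1.27 ± 0.151 closed the order. Among all 19718 genes GATA1 ranked between 228 and 269 from the top over the 8 libraries, and ZFPM2 between 5626 and 11873.

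**Figure D1:**
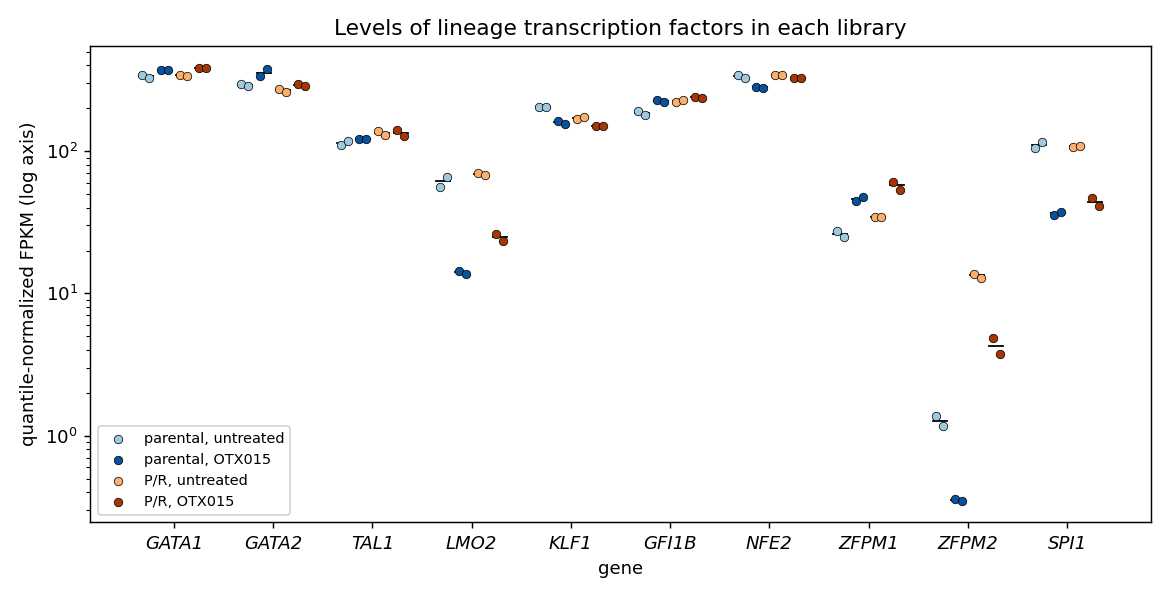
Quantile-normalized FPKM (log axis) of each factor in each of the 8 libraries, by group, with the mean of the 2 libraries as a bar. LMO2, SPI1 and ZFPM2 sit lower under OTX015 in both lines, ZFPM1 sits higher, and ZFPM2 is about 1 FPKM in untreated parental cells and about 13 in untreated P/R cells.

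The order in untreated P/R cells was alike at the top, with NFE2 at 340.2 ± 1.02 and GATA1 at 339.5 ± 1.97 FPKM in overlapping libraries and GATA2 at 267 ± 6.73. GFI1B at 225 ± 5.28 stood above KLF1 at 170.2 ± 4.89, the reverse of the parental order, with no overlap in either line. Under OTX015, ZFPM1 stood above SPI1, and SPI1 above LMO2, in every library of both lines. GATA1 and GATA2 overlapped in treated parental cells, while GATA1, NFE2 and GATA2 were separate in treated P/R cells.

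The identity of the cells was checked against markers. All 10 erythroid markers (such as HBG1, TFRC and EPOR) were at 1 FPKM or more in every group, with a summed level of 26980 to 29829 FPKM per library. Other erythroid genes of the target list were not: the group means of AHSP, SLC4A1 and BCAM, named after their values were seen, were at most 0.366, 0.214 and 0.224 FPKM. Of 8 megakaryocyte markers, 7 were at that level, and their sum was 902 to 923 FPKM in untreated parental cells, 649 to 657 with OTX015, 1104 to 1106 in untreated P/R cells and 794 to 866 with OTX015. Of 8 monocyte and granulocyte markers 1 reached 1 FPKM, with S100A8 and ELANE at 0. Of 6 lymphocyte markers 1 did, with CD3D and MS4A1 at 0, and their sum ran from 1.43 to 6.03 FPKM. None of 6 epithelial and stromal markers did. The deposited normalization gives each library the same total of 678133 FPKM, so depth is unknown and counting errors are not given.

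The first question was how a BET inhibitor moves these factors in parental cells. LMO2, SPI1 and ZFPM2 fell and ZFPM1 rose by more than the other members, and the order of the falls depends on the scale. SPI1 fell by more than ZFPM2 on the log2 scale used here and by less in the ratio of mean FPKM (3.03-fold against 3.598-fold). In all, 4 members rose and 5 fell, so 9 of 10 passed the threshold (limma, Benjamini-Hochberg adjusted p under 0.05) against 50.4% of the 11255 genes tested, of which 25.7% were higher and 24.7% lower. The median size of the change was 0.32 on the log2(FPKM + 1) scale for the members and 0.24 for all genes. Changes are on this scale throughout, which understates those of low genes. Of all called genes 51% were higher, and 38.6% when the libraries were centred on 18 reference genes. In bulk RNA, fewer cells of a type and less RNA per cell cannot be told apart.

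LMO2, the bridging protein of the TAL1 and LDB1 complex, was at 56.2 and 66.1 FPKM in the untreated parental libraries and at 14.5 and 13.6 with OTX015. The P/R libraries were at 70.5 and 67.8 FPKM untreated and at 26.3 and 23.1 with the drug. Treated and untreated libraries were far apart in both lines, and the treated P/R libraries stayed above the treated parental ones. LMO2 fell by 2.04 ± 0.09 (SE, limma adjusted p = 5.72e-07), or 4.35-fold in mean FPKM, in parental cells. In the P/R line it fell by 1.45 ± 0.09 (limma adjusted p = 5.12e-06), or 2.80-fold. Of all genes tested, 15 fell by more than LMO2 in parental cells.

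SPI1 was at 105 and 115 FPKM in untreated parental cells and at 35.6 and 37.2 with OTX015. The P/R libraries were at 106 and 109 FPKM untreated and at 46.9 and 41.0 with the drug. The untreated libraries of the 2 lines overlapped, and the treated ones did not. SPI1 fell by 1.57 ± 0.07 in parental cells (3.03-fold, limma adjusted p = 8.01e-07) and by 1.28 ± 0.07 in P/R cells (2.45-fold, adjusted p = 3.72e-06).

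TAL1, the helix-loop-helix partner of LMO2, did not follow it. Its parental libraries were at 109.6 and 119 FPKM untreated and at 122 and 122 with OTX015, a difference of 0.10 ± 0.06 that was not called (limma adjusted p = 0.200; 95% interval -0.04 to 0.24). The P/R libraries were at 139 and 129.5 FPKM untreated and at 139.6 and 127 with OTX015. These overlapped, with a difference of -0.01 ± 0.06 (limma adjusted p = 0.914; 95% interval -0.15 to 0.13).

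ZFPM1, the GATA1 cofactor, was at 27.6 and 24.8 FPKM in untreated parental cells and at 44.6 and 47.2 with OTX015. Its P/R libraries were at 34.3 and 34.3 FPKM untreated and at 61.1 and 53.6 with the drug. No treated library overlapped an untreated one of its line. ZFPM1 rose by 0.79 ± 0.08 in parental cells (1.75-fold, limma adjusted p = 3.98e-05) and by 0.72 ± 0.08 in P/R cells (1.67-fold, adjusted p = 9.48e-05). The gene overlaps the antisense gene ZFPM1-AS1, and the sources used here do not say whether counting kept the strand, so its value is uncertain in that respect. The same holds for ZFPM2 with ZFPM2-AS1, GATA2 with GATA2-AS1 and GFI1B with TSC1.

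ZFPM2, the second FOG cofactor, was low in parental cells, at 1.38 and 1.17 FPKM untreated and at 0.358 and 0.350 with OTX015. The P/R libraries were at 13.8 and 12.9 FPKM untreated and at 4.84 and 3.74 with the drug. Even the treated P/R libraries stood above the untreated parental ones. ZFPM2 fell by 0.75 ± 0.12 in parental cells (limma adjusted p = 0.000872) and by 1.45 ± 0.12 in P/R cells (adjusted p = 2.86e-05). In ratios of mean FPKM these falls were 3.598-fold and 3.11-fold.

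GATA1 was at 343 and 327 FPKM in untreated parental cells and at 369.7 and 368 with OTX015. Those of the P/R line were at 341 and 338 FPKM untreated and at 380.4 and 386 with the drug. The treated libraries were the higher ones in each line. GATA1 rose by 0.14 ± 0.04 in parental cells (1.10-fold, limma adjusted p = 0.0134) and by 0.17 ± 0.04 in P/R cells (1.13-fold, adjusted p = 0.00511). Neither call held with reference gene centring (0.06, adjusted p = 0.264, and 0.08, adjusted p = 0.162). The parental call was also lost without a variance trend (adjusted p = 0.0807), without the second untreated library (adjusted p = 0.0942) and without the first treated library (adjusted p = 0.0531).

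GATA2 was at 296 and 288 FPKM in untreated parental cells and at 338 and 374 with OTX015. Levels in P/R cells were 271 and 262 FPKM untreated and 297 and 286 with OTX015. Treated libraries were above untreated ones in each line. GATA2 rose by 0.28 ± 0.05 in parental cells (1.22-fold, limma adjusted p = 0.00172). The difference in P/R cells was 0.13 ± 0.05 (limma adjusted p = 0.0755) and was called when only the 2 groups were fitted (adjusted p = 0.0477) or when the first or the second treated parental library was left out of the shared fit (adjusted p = 0.0373 and 0.0375).

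KLF1 and NFE2, the CACCC-binding and the small MAF-binding activators, fell in parental cells. KLF1 was at 204 and 204 FPKM untreated and at 163 and 154 with OTX015, and it fell by 0.36 ± 0.04 (1.29-fold, limma adjusted p = 0.000159). Its P/R libraries were at 167 and 174 FPKM untreated and at 151 and 150.1 with the drug, where it fell by 0.18 ± 0.04 (1.13-fold, adjusted p = 0.0102). Treated and untreated libraries were separate in both lines. The P/R call was lost without the second untreated P/R library (adjusted p = 0.0900).

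NFE2 went from 344 and 326 FPKM to 283 and 279 in parental cells and fell by 0.25 ± 0.04 (1.19-fold, limma adjusted p = 0.000654). Its level in P/R cells was 339 and 341 FPKM untreated and 324 and 325 with OTX015. That difference of -0.07 ± 0.04 was not called (limma adjusted p = 0.184) and was called with reference gene centring (-0.16, adjusted p = 0.0133).

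GFI1B, the repressor, was at 192 and 180.1 FPKM in untreated parental cells and at 228 and 222 with OTX015. It rose by 0.27 ± 0.04 (1.21-fold, limma adjusted p = 0.000899). In P/R cells it was at 221 and 229 FPKM untreated and at 241 and 235 with the drug, higher in both treated libraries but by 0.08 ± 0.04, which was not called (limma adjusted p = 0.173) and was -0.01 with reference gene centring.

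**Figure D2:**
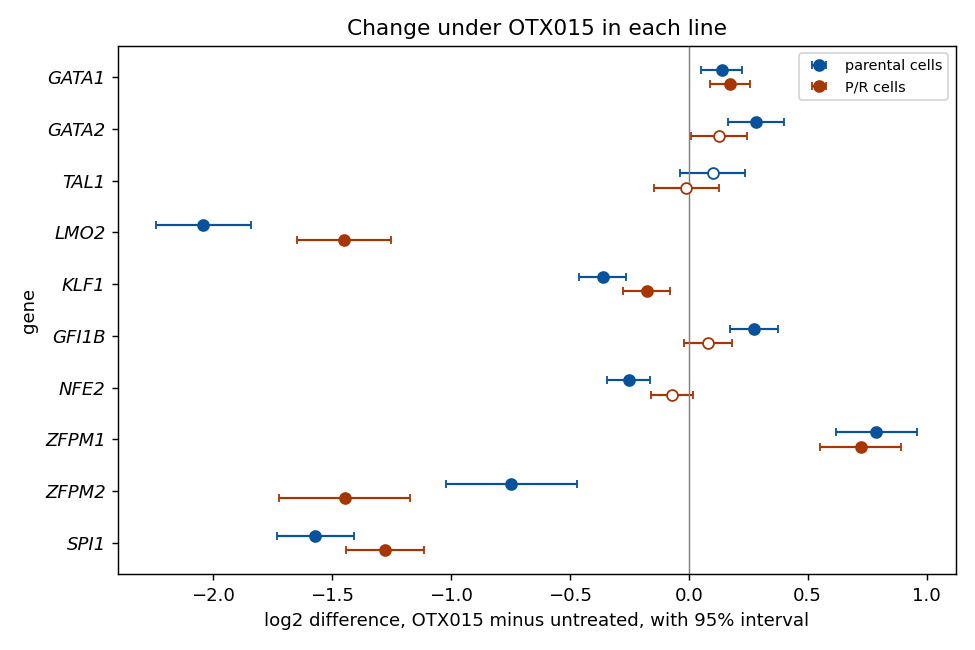
Difference between treated and untreated cells for each factor on the log2(FPKM + 1) scale, with its 95% interval, in parental (blue) and P/R cells (brown); filled points passed the adjusted threshold. LMO2 at -2.04 and -1.45 and SPI1 at -1.57 and -1.28 lie furthest to the left together with ZFPM2, and ZFPM1 at 0.79 and 0.72 furthest to the right.

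In P/R cells 2 members rose (GATA1 and ZFPM1) and 4 fell (LMO2, KLF1, ZFPM2 and SPI1), so 6 of 10 passed against 44.3% of genes tested, with 22.5% higher and 21.8% lower. Of all called genes 50.8% were higher, and 32.9% with reference gene centring. The median size of the change was 0.17 for the members and 0.22 for all genes.

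The difference in response between the lines was tested in the same fit, and none of the 10 members passed, against 0.08% of genes tested (9 genes, with 0.0622% of genes higher and 0.0178% lower). Before adjustment 6 members had p under 0.05 (LMO2, ZFPM2, NFE2, GFI1B, KLF1 and SPI1), against 9.6% of all genes. LMO2 came nearest, with a response that differed by 0.59, its fall being the smaller in P/R cells (95% interval 0.31 to 0.87, limma adjusted p = 0.172). For SPI1 the fall was smaller by 0.29 (interval 0.06 to 0.52, limma adjusted p = 0.392). The response of ZFPM2 differed by -0.70 (interval -1.09 to -0.31, limma adjusted p = 0.224), a value that depends on the pseudocount: it was -0.03 with 0.1 and -0.76 with 5, where it was called (limma adjusted p = 0.0110). The intervals for KLF1 (0.04 to 0.33), NFE2 (0.06 to 0.31) and GFI1B (-0.34 to -0.05) also left out 0 before adjustment. Those for GATA1 (-0.09 to 0.16), GATA2 (-0.32 to 0.01), TAL1 (-0.30 to 0.08) and ZFPM1 (-0.31 to 0.18) did not.

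The next question was how the P/R cells differ from parental cells without the drug. ZFPM2 stood apart from the other members, 10.5-fold higher in mean FPKM in P/R cells. In all, 4 members were higher and 1 lower, so 5 of 10 passed against 23.5% of genes tested, with 11.7% higher and 11.9% lower. ZFPM2 was higher by 2.66 ± 0.12 (limma adjusted p = 1.75e-06), and 3 of all genes tested were higher by more. ZFPM1 was higher by 0.38 ± 0.08 (1.31-fold, limma adjusted p = 0.00628) and GFI1B by 0.27 ± 0.04 (1.21-fold, adjusted p = 0.00213), while KLF1 was lower, at -0.26 ± 0.04 (1.199-fold, adjusted p = 0.00240). In each of these 4 the libraries of the lines were separate. That also held for GATA2 and LMO2, which were not called, and the share of all genes with separate libraries was not counted.

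TAL1 was higher in untreated P/R cells by 0.23 ± 0.06 (1.18-fold, limma adjusted p = 0.0214). That call was lost without a filter on low values (adjusted p = 0.0604), without a variance trend (adjusted p = 0.0679), and without the first parental or the first P/R untreated library (adjusted p = 0.138 and 0.156). GATA1 (0.02, limma adjusted p = 0.770; 95% interval -0.07 to 0.10), NFE2 (0.02, adjusted p = 0.729; -0.07 to 0.11) and SPI1 (-0.03, adjusted p = 0.805; -0.19 to 0.13) overlapped between the lines. GATA2 was at -0.13 (limma adjusted p = 0.107; -0.25 to -0.01) and was called when only these groups were fitted (adjusted p = 0.0409). LMO2 was at 0.18 (limma adjusted p = 0.178; -0.02 to 0.38).

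**Figure D3:**
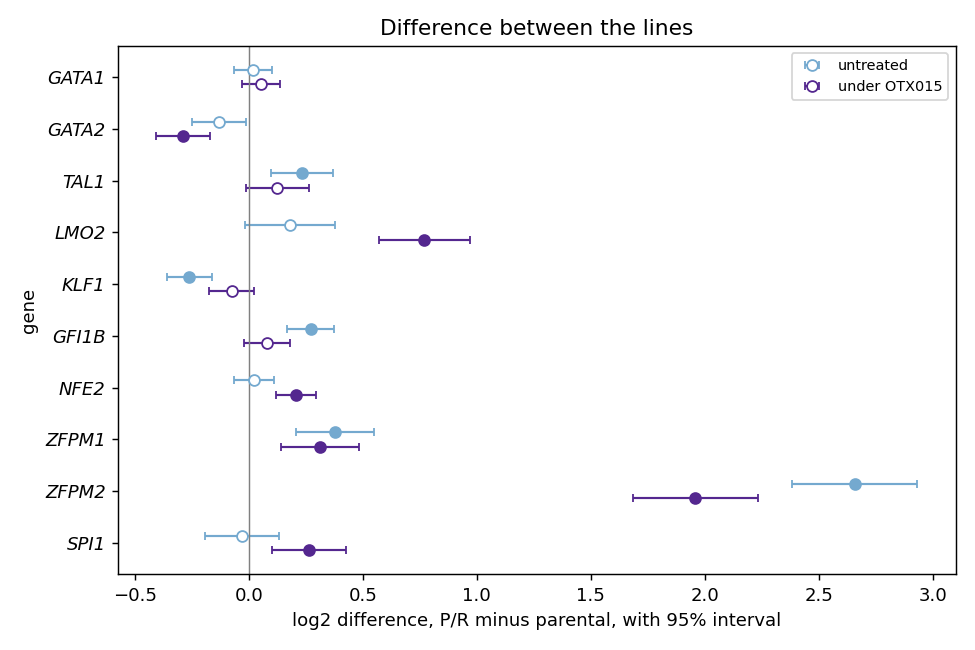
Difference between P/R and parental cells for each factor on the log2(FPKM + 1) scale, with its 95% interval, untreated (light blue) and under OTX015 (purple); filled points passed the adjusted threshold. ZFPM2 lies at 2.66 and 1.96, and LMO2 at 0.18 untreated and at 0.77 under the drug.

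Under OTX015, 5 members were higher in P/R than in parental cells and 1 was lower, so 6 of 10 passed against 24.4% of genes tested, with 12.7% higher and 11.7% lower. ZFPM2 was higher by 1.96 ± 0.12 (12.1-fold, limma adjusted p = 6.30e-06) and LMO2 by 0.77 ± 0.09 (1.76-fold, adjusted p = 0.000229). NFE2 was higher by 0.21 ± 0.04 (1.15-fold, limma adjusted p = 0.00449) and GATA2 lower, at -0.29 ± 0.05 (1.22-fold, adjusted p = 0.00346). The treated libraries of the lines were separate for every member, called or not, so separation does not set these 4 factors apart. The share of all genes with separate libraries was not counted.

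ZFPM1 was higher in treated P/R cells by 0.31 ± 0.08 (limma adjusted p = 0.0162), a call lost without the filter on low values (adjusted p = 0.0502) and without the first treated library of the parental (adjusted p = 0.1004) or the P/R cells (adjusted p = 0.106). SPI1 was higher by 0.26 ± 0.07 (limma adjusted p = 0.0273), a call lost in 7 of 18 alternatives, among them leaving out the first or the second treated parental library (adjusted p = 0.134 and 0.0609) or the first treated P/R library (adjusted p = 0.153). GATA1 (0.05, limma adjusted p = 0.346), TAL1 (0.12, adjusted p = 0.176), KLF1 (-0.07, adjusted p = 0.262) and GFI1B (0.08, adjusted p = 0.249) were not called.

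Ratios of levels within a library put the opposing factors side by side, as a description with no test. The level of GATA1 over that of SPI1 was 3.28 and 2.83 in untreated parental cells and 10.4 and 9.89 with OTX015. For P/R cells it was 3.20 and 3.11 untreated and 8.11 and 9.41 with the drug. The ratio was higher in all 4 treated libraries than in any untreated one. GATA2 over SPI1 went from 2.82 and 2.49 to 9.51 and 10.0 in parental cells and from 2.55 and 2.41 to 6.335 and 6.96 in P/R cells.

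The ratio of GATA1 to GATA2 stayed near 1, at 1.16 and 1.14 untreated and 1.09 and 0.984 treated in parental cells. In P/R cells it was 1.26 and 1.29 untreated and 1.28 and 1.35 treated, above every parental library. ZFPM1 over GATA1 was 0.0802 and 0.0758 untreated and 0.121 and 0.128 treated in parental cells. It was 0.101 and 0.101 untreated and 0.161 and 0.139 treated in P/R cells, so the messenger RNA of the cofactor was below that of its GATA partner in every library.

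**Figure D4:**
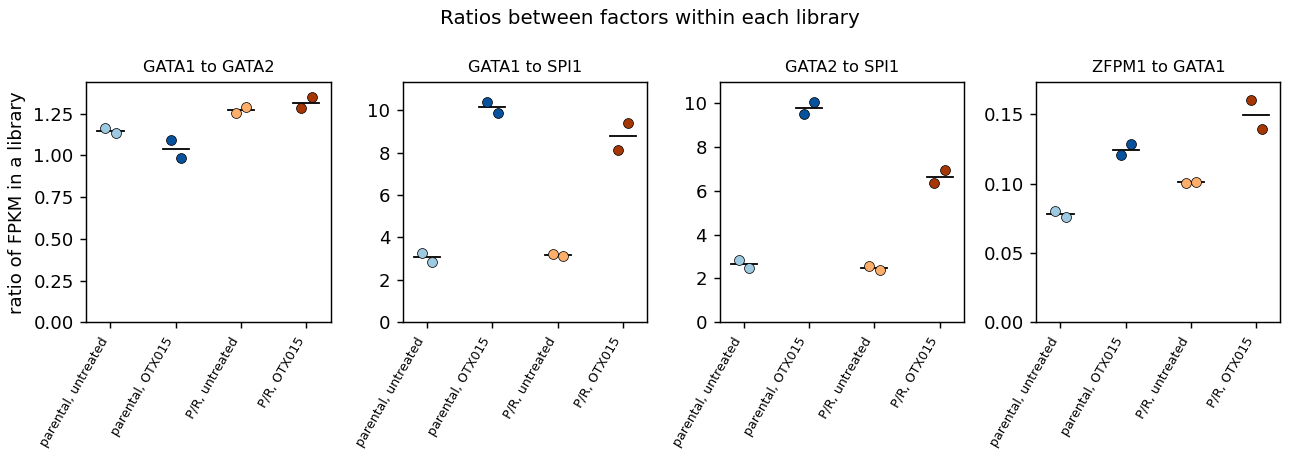
Ratio of FPKM of GATA1 to GATA2, GATA1 to SPI1, GATA2 to SPI1 and ZFPM1 to GATA1 in each library (points, by group, linear axes from 0, bar at the mean of the 2 libraries). The ratios to SPI1 are below 4 in the 4 untreated libraries and above 6 in the 4 treated ones.

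Lists of partners and known targets were counted beside the members, with no test of a list. For all list counts below, the shares over all genes tested are these. Under OTX015 25.7% rose and 24.7% fell in parental cells, and 22.5% rose and 21.8% fell in P/R cells. Between the untreated lines 11.7% were higher and 11.9% lower in P/R cells. Of 25 genes for partners of the GATA and TAL1 complex, 24 were tested. In parental cells 5 rose and 7 fell under OTX015, and in P/R cells 6 rose and 6 fell, with medians of -0.02 and 0.00 against 0.02 and 0.01 for all genes. CBFA2T2, a corepressor of the ETO family, rose by 0.94 and 0.59 (limma adjusted p = 0.000148 and 0.00262), and SSBP2, which binds LDB1, rose by 0.63 and 0.72 (adjusted p = 0.000964 and 0.000579). ETV6, an ETS repressor, fell by 0.79 and 0.64 (limma adjusted p = 8.18e-05 and 0.000378), and TCF3, the E protein that pairs with TAL1, fell by 0.53 and 0.36 (adjusted p = 3.16e-05 and 0.000443). With reference gene centring the counts were 4 higher and 10 lower, and 3 higher and 10 lower.

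Of 8 small MAF and CNC genes, the family that NFE2 belongs to, 7 were tested, with 2 higher and 1 lower in parental and 1 higher and 2 lower in P/R cells. NFE2L1 rose by 0.46 and 0.38 (limma adjusted p = 0.000161 and 0.000672). BACH1, a repressor that competes with NFE2 for small MAF partners, rose by 0.45 in parental cells (limma adjusted p = 0.00540) and was at 0.20 in P/R cells (adjusted p = 0.141). MAFK was at -0.16 in parental cells (limma adjusted p = 0.363) and fell by 0.40 in P/R cells (adjusted p = 0.0404), a call lost without the first or the second untreated P/R library (adjusted p = 0.162 and 0.0820) or the second treated one (adjusted p = 0.248).

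Of 27 paralogues of the members 14 were tested, with 4 higher and 6 lower in parental cells and 2 and 2 in P/R cells, or 3 and 6 and 2 and 7 with reference gene centring. LMO4, a LIM-only protein like LMO2, rose by 0.64 in parental cells (limma adjusted p = 3.15e-05) and by 0.71 in P/R cells (adjusted p = 2.63e-05), the opposite direction to LMO2. Its mean was 50.8 ± 1.67 and 79.6 ± 2.72 FPKM in parental cells and 28.3 ± 1.53 and 46.9 ± 1.14 in P/R cells, untreated and treated. GFI1, the paralogue of GFI1B, rose by 0.38 in parental cells (limma adjusted p = 0.0329), a call lost without either untreated library (adjusted p = 0.0576 and 0.146) or the first treated one (adjusted p = 0.180). In untreated cells GFI1 was lower in P/R than in parental cells, at -1.23 (limma adjusted p = 0.000150), against GFI1B, which was higher. KLF13 and KLF16 fell by 0.36 and 0.32 in parental cells (limma adjusted p = 0.0197 and 0.0387). The KLF13 call was lost without the second untreated or either treated library (adjusted p up to 0.135), and the KLF16 call without any 1 of the 4 parental libraries (adjusted p up to 0.161).

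**Figure D5:**
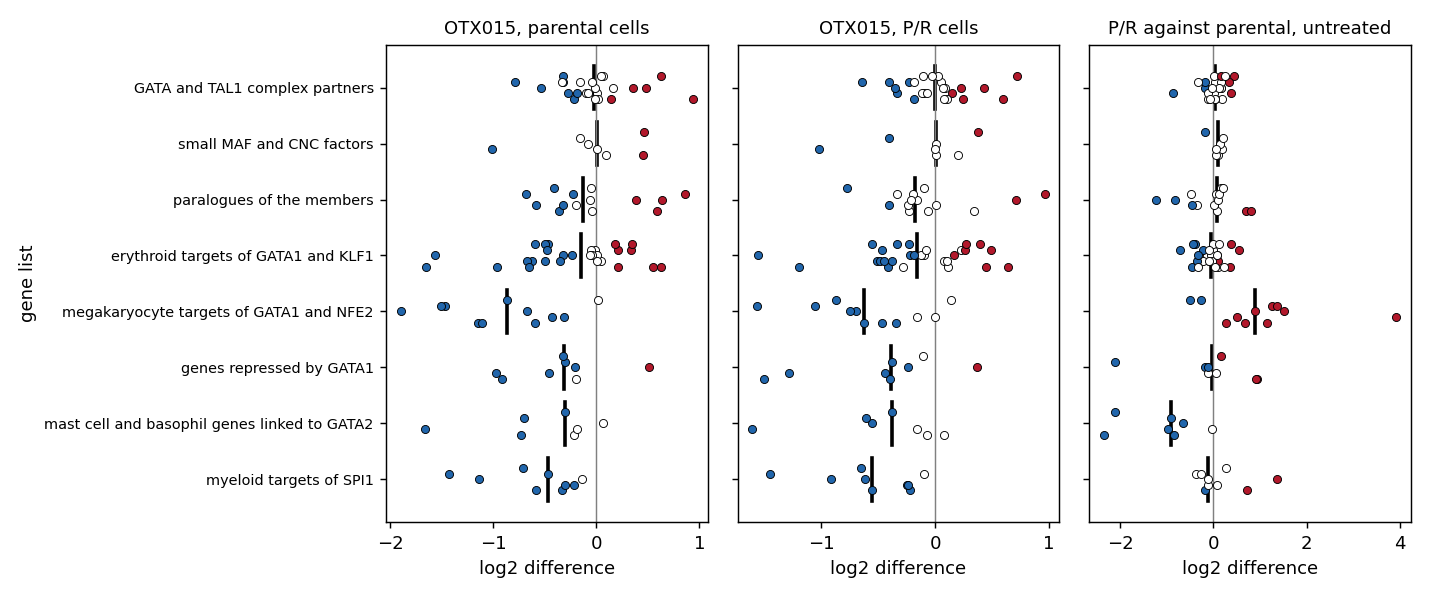
Log2 difference of each tested gene of 8 lists under OTX015 in parental and P/R cells and between the untreated lines (red higher, blue lower, white not called), with the list median as a bar. The megakaryocyte list lies to the left of 0 under OTX015 (medians -0.86 and -0.63) and to the right of 0 in the comparison of the lines (median 0.89).

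Of 31 erythroid targets of GATA1 and KLF1, 28 were tested, and more fell than rose. In parental cells 7 rose and 14 fell and in P/R cells 7 rose and 13 fell, with medians of -0.15 and -0.16. ALAD, FECH and EPOR, named after their values were seen, had higher means under OTX015. These went from 15.5 to 23.1, 45.6 to 58.3 and 41.5 to 52.7 FPKM in parental cells. The P/R means went from 11.1 to 17.9, 34.5 to 45.4 and 35.8 to 50.5 FPKM. HEMGN, an erythroid nuclear protein, fell by 1.65 and 1.196 (limma adjusted p = 2.46e-06 and 2.25e-05), and EPB42, protein 4.2 of the red cell skeleton, by 1.57 and 1.55 (adjusted p = 1.62e-06 and 2.67e-06). DMTN, an actin-binding skeleton protein, fell by 0.96 and 0.42 (limma adjusted p = 1.03e-06 and 0.000128). Its fall was smaller in P/R cells by 0.54 (limma adjusted p = 0.0424), a call lost when any 1 library other than the second treated P/R library was left out (adjusted p up to 0.206), without a variance trend (adjusted p = 0.107) and with reference gene centring (adjusted p = 0.0723).

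The megakaryocyte targets of GATA1 and NFE2 had the largest list medians under OTX015. Of 13, 11 were tested: none rose and 10 fell in parental cells, none rose and 8 fell in P/R cells, and in untreated cells 9 were higher and 2 lower in P/R than in parental cells. The medians were -0.86, -0.63 and 0.89, against 0.02, 0.01 and -0.01 for all genes. GP6, the platelet collagen receptor, was at 25.3 ± 0.0122 FPKM untreated and 6.08 ± 0.274 treated in parental cells and at 47.8 ± 1.15 and 29.2 ± 1.81 in P/R cells. It fell by 1.89 and 0.69 (limma adjusted p = 2.32e-07 and 6.45e-05). GP9 and GP1BA, of the receptor for von Willebrand factor, fell by 1.47 and 1.06 (limma adjusted p = 2.46e-06 and 2.32e-05) and by 1.15 and 0.46 (adjusted p = 2.17e-06 and 0.000463). SELP, the granule protein P-selectin, fell by 1.504 and 1.56 (limma adjusted p = 1.36e-05 and 1.67e-05).

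In untreated P/R cells GP6, GP9, GP1BA and SELP were higher than in parental cells by 0.89, 1.27, 1.15 and 1.37 (limma adjusted p from 4.35e-06 to 5.14e-05). The 2 lower genes, named after their values were seen, were ITGA2B and TBXAS1. ITGA2B was at 378 ± 16.9 FPKM in untreated parental and 313 ± 18.1 in untreated P/R cells, and TBXAS1 at 28.0 ± 1.94 and 19.4 ± 0.323. PF4, platelet factor 4, named after its values were seen, was at 2.33 ± 0.471 FPKM in untreated parental and 48.9 ± 2.14 in untreated P/R cells, a difference of 3.91 (21.0-fold, limma adjusted p = 1.77e-07). NFE2 itself was at 0.02 in that comparison. The response to the drug differed between the lines for GP6, whose fall was smaller in P/R cells by 1.2004 (limma adjusted p = 0.00412), and for GP1BA by 0.69 (adjusted p = 0.0478). The GP1BA call was lost when any 1 library was left out (adjusted p up to 0.224), without a variance trend (adjusted p = 0.107) and with reference gene centring (adjusted p = 0.0723).

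Of 8 genes that GATA1 is known to repress, 1 rose and 6 fell in each line, with medians of -0.31 and -0.39. MYB, a progenitor factor, fell by 0.97 and 1.28 (limma adjusted p = 4.84e-06 and 1.79e-06), and the kinase gene CDK6 by 0.46 and 0.44 (adjusted p = 0.00221 and 0.00302). HHEX, a homeobox factor, was the gene that rose, by 0.51 and 0.36 (limma adjusted p = 3.01e-05 and 0.000277). MEIS1, also a homeobox factor, was at -0.19 in parental cells (limma adjusted p = 0.203; called at -0.39 without the second treated library, adjusted p = 0.0139) and fell by 0.39 in P/R cells (adjusted p = 0.0226), a call lost when any 1 of the 4 P/R libraries was left out (adjusted p up to 0.108).

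Of 9 mast cell and basophil genes linked to GATA2, 7 were tested, with none higher and 4 lower under OTX015 in each line, and 6 of 7 lower in untreated P/R than in untreated parental cells. FCER1A, a chain of the IgE receptor, fell from 136 ± 5.09 to 42.4 ± 3.99 FPKM in parental and from 133 ± 0.499 to 43.0 ± 2.36 in P/R cells (by 1.66 and 1.60, limma adjusted p = 4.56e-07 and 8.10e-07). It was the 1 tested gene of the list not called between the untreated lines (-0.03, limma adjusted p = 0.779). KIT, the stem cell factor receptor, was at 12.3 ± 1.46 FPKM in untreated parental and 2.09 ± 0.178 in untreated P/R cells, and CPA3, a mast cell protease, at 10.9 ± 0.642 and 1.34 ± 0.0643. The differences between the untreated lines were -2.11 and -2.35 (limma adjusted p = 2.66e-06 and 7.30e-06).

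HDC, which makes histamine, was at 403 ± 31.6 FPKM in untreated and 421 ± 13.6 in treated parental cells (0.06, limma adjusted p = 0.380; -0.01 with reference gene centring). In P/R cells it fell from 255 ± 11.2 to 173 ± 2.87 FPKM (by 0.56, limma adjusted p = 8.32e-05). The difference in its response was -0.62 (limma adjusted p = 0.0478), a call lost when any 1 library other than the first untreated parental library was left out (adjusted p up to 0.211), without a variance trend (adjusted p = 0.152) and with reference gene centring (adjusted p = 0.0723). Under OTX015, CPA3 fell by 0.73 in parental cells (limma adjusted p = 0.00264). KIT fell by 0.30 and 0.38 (limma adjusted p = 0.0385 and 0.0150). The KIT call in parental cells was lost without the second untreated library or either treated one (adjusted p up to 0.236), and that in P/R cells without the second untreated or the first treated library (adjusted p = 0.0924 and 0.0580).

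Of 22 myeloid targets of SPI1 only 9 passed the filter on low values, and none rose and 8 fell in each line, with medians of -0.47 and -0.56. CTSS, the protease cathepsin S, fell by 1.43 and 1.45 (limma adjusted p = 4.52e-05 and 6.02e-05), and NCF4, a subunit of the phagocyte oxidase, by 1.14 and 0.92 (adjusted p = 1.34e-06 and 6.17e-06). The IgG receptor gene FCGR2A, which has near-identical relatives, fell by 0.71 and 0.65 (limma adjusted p = 0.000430 and 0.000910). CD68 was at -0.13 in parental cells (limma adjusted p = 0.298) and fell by 0.61 in P/R cells (adjusted p = 0.00119). The monocyte and granulocyte markers summed to 13.2 to 13.7 FPKM in untreated and 11.2 to 12.4 in treated parental libraries, and to 12.1 to 13.1 and 10.1 to 10.6 in P/R libraries. Their part in these values was not tested.

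For each member the genes whose log2 levels followed it most closely over the 8 libraries were picked among 8297 genes with a mean of at least 5 FPKM, as a description with no test, since the 8 libraries fall into only 4 groups and share 1 normalization. SPI1 was followed by IGFBP5 (Pearson r = 0.999), GOLGA8S and CD226. LMO2 was followed by FAM69B (r = 0.996), LRFN4 and APLNR, and ZFPM1 by PDLIM7 (r = 0.998), GPAA1 and FOXP4. ZFPM2 was followed by THBS1 (r = 0.996), PRKCB and CD4. GATA1 was followed by HIBADH (r = 0.994), CTNNA1 and EXT2, and GATA2 by HIC2 (r = 0.982), RNF25 and YEATS4. The nearest genes were AMOTL1 for TAL1 (r = 0.955), AKT1S1 for KLF1 (r = 0.986), NR5A1 for NFE2 (r = 0.979) and CLK3 for GFI1B (r = 0.981). No member was among the 3 nearest genes of another.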

How the data were processed

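A single table, deposited by the authors, gives 19718 coding genes in 8 libraries; its values are taken to be FPKM, though the header names no unit. The deposited FPKM are quantile normalized across libraries, as the values show: between libraries, values of equal rank are within 0.136%. TopHat2 2.0, Cufflinks 2.0 and hg19 are named per the submitters' processing notes, without their roles. RNA was total RNA treated with DNase, per the labels' protocols; the sources used here do not state poly(A) selection or strand. Depth cannot be recovered. Replicates correlated at r = 0.996 to 0.997 across genes, which are not independent replicates.

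Genes with at least 1 FPKM in at least 2 libraries were tested (11255). A model of 4 group means was fitted to log2(FPKM + 1) in limma 3.58.1 (R 4.3.3; eBayes with a variance trend; 4 residual and 5.23 prior degrees of freedom), two-sided, with Benjamini-Hochberg adjustment over all genes tested, a threshold of 0.05 and 5 contrasts. An exact permutation test of 2 against 2 libraries cannot give p below 0.333. Tested on simulated data (OTX015 in parental cells, 11255 genes), 98% of planted differences of 0.5 and 100% of those of 1 were called, with 11 false calls. The differences, 100 of each size, were planted only in genes above 5 FPKM, with normal noise of a spread smoothed over the level. All other genes had no difference. These rates therefore do not cover low genes such as ZFPM2, or data in which many genes change. Members and gene lists were chosen with earlier results of these data known. Text genes are the members, up to 4 called genes per list with the largest OTX015 change and a group mean of at least 5 FPKM, the 3 most alike genes per member, and the 5 tested neighbours on each side of members called between the untreated lines; some genes that this rule names are not reported here. The alternatives changed the pseudocount (0.1 or 5), the filter (none, or a mean of at least 5 FPKM), the variance trend (none), the centring (median or reference genes) or the fit (only the groups compared, a replicate block, each library left out). A crossed block, in which the replicate numbers of the treated parental libraries were exchanged, was added after the data were seen and is counted among the alternatives.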

Additional observations from a re-analysis of the deposited data

How the results depend on the processing

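The 50 results on the 10 factors were set against 885 alternatives, which include a crossed block added after the data were seen. Of these, 849 kept direction and side of the threshold, 20 lost a call, 8 gained one and 8 changed sign, all 8 without a call. Calls gained include those of GATA2 under the crossed block, in P/R cells under OTX015 and between the untreated lines. LMO2, SPI1 and ZFPM1 kept their OTX015 calls in both lines under every alternative tried, and ZFPM2 under all but a mean of at least 5 FPKM, where it could not be evaluated. With reference gene centring the difference of GFI1B in P/R cells was -0.0141 and that of HDC in parental cells -0.0138. Leaving out 1 library in turn gave -0.0158 to 0.144 for HDC and -0.387 to 0.0048 for MEIS1 in parental cells under OTX015, -0.075 to 0.056 for TAL1 and -0.274 to 0.137 for CPA3 in P/R cells under OTX015, and -0.159 to 0.0249 for ZFPM1 in the difference in response. For the untreated lines the range was -0.0166 to 0.0537 for GATA1, -0.0178 to 0.0629 for NFE2, -0.0991 to 0.0382 for SPI1 and -0.0706 to 0.0054 for FCER1A, with the sign changing without the second parental library. The OTX015 calls of GFI1, KLF13, KLF16 and KIT in parental cells and of MAFK and MEIS1 in P/R cells, and those of DMTN, GP1BA and HDC in the difference in response, were also lost without a filter on low values. The cause was not tested.

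The count of members called in the difference in response was 0, and 1 with a pseudocount of 5. Over all genes that count was 9, and 4 with a pseudocount of 0.1, 29 with a pseudocount of 5, 4 without a filter, 3 without a variance trend, 3 with reference gene centring and 2 to 8 with each library left out. Between the untreated lines 2647 genes were called, and 1614 to 2688 with each library left out (1614 without the first and 1689 without the second P/R library, where fewer samples were fitted). Under OTX015 it was 2747, and 1763 to 2633 (1763 without the first parental library).

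Same-numbered libraries did not deviate together (correlations -0.12 to 0.10). The labels do not say whether the replicate numbers pair samples, and these correlations cannot show how the libraries were prepared. With the replicate number as a block 9, 6, 5, 6 and 0 members were called, as without it, and 2 in place of 9 genes in the difference in response, where the calls of DMTN, GP1BA and HDC were lost (adjusted p = 0.0949, 0.114 and 0.108). A crossed block, added after the data were seen, called 9, 7, 6, 6 and 0 members. The unknown depth limits the precision that can be stated for low levels such as those of ZFPM2.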

Other observations

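Genes beside the members on the chromosome were compared between the untreated lines for the 5 members called there, 10 tested neighbours each, in the gene order of the reference annotation; of all genes tested 23.5% were called in this comparison. ZFPM2 was 10.5-fold higher in P/R cells, and 1 of its 10 neighbours was called: ANGPT1, a ligand of the TEK receptor, was higher by 1.67 (limma adjusted p = 5.08e-05), and the median of the neighbours was 0.07. Beside KLF1, which was lower, PRDX2 was lower, at -0.55 (limma adjusted p = 1.06e-05), as was JUNB, at -0.20 (adjusted p = 0.0474). Beside TAL1, MOB3C was higher by 0.50 (limma adjusted p = 0.00185) and EFCAB14 by 0.21 (adjusted p = 0.0490). Beside ZFPM1, ZNF469 was higher by 0.52 (limma adjusted p = 0.00993), and MVD and SNAI3 were lower, at -0.40 and -0.50 (adjusted p = 0.0116 and 0.0247). None of the 10 neighbours of GFI1B was called, with TSC1 at 0.07 (limma adjusted p = 0.641).

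The reference genes used for centring also moved under OTX015: of 18, 6 rose and 4 fell in parental cells, and 7 rose and 2 fell in P/R cells. POLR2A, the largest subunit of RNA polymerase II, was at 112 ± 1.63 FPKM untreated and 238 ± 11.3 treated in parental cells, and at 149 ± 5.87 and 320.2 ± 21.0 in P/R cells (SD, n = 2). It rose by 1.08 and 1.10 (limma adjusted p = 1.53e-06 and 2.46e-06). SDHA rose by 0.61 and 0.58 (limma adjusted p = 9.74e-06 and 1.89e-05) and VCP by 0.42 and 0.35 (adjusted p = 0.000343 and 0.00122), while the nuclear import gene IPO8 fell by 0.78 and 0.63 (adjusted p = 9.15e-05 and 0.000413).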
